A study of Vaccinium corymbosum with 9 samples.

Results

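Loci of 3-ketoacyl-CoA synthase (KCS) on scaffolds 19, 20 and 28 of the blueberry genome, with their immediate neighbours, were followed through fruit ripening. The 9 gene models, of 93716 in the deposited table, comprise 3 genes with the KEGG ortholog of KCS (K15397), 3 further models that carry the same protein description (Vadar_018697) and 3 neighbouring models described as Vadar_031021. The loci were chosen by the FPKM of their KCS genes, near 0 in green fruit and higher later, so the levels in green fruit against the later stages are given below as a description, without a test. The change between color break and mature fruit did not choose them and was tested, although it uses the same color break libraries.

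The fruit came from orchard-grown plants of the highbush blueberry cultivar 'Bluecrop' (Vaccinium corymbosum), which received no treatment. Total RNA of ground fruit was sequenced at the early green stage, at color break, when the berry begins to turn, and at maturity, with 3 libraries per stage that the labels describe as independent biological replicates. How many fruits or plants entered a library is not stated, so p-values measure the spread between these libraries. All tissues of the berry were ground together, and in such bulk RNA fewer cells of a type and less RNA per cell cannot be told apart.

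KCS is the condensing enzyme of the fatty acid elongase in the endoplasmic reticulum. It joins malonyl-CoA to an acyl-CoA and so begins each round of chain lengthening, after which a ketoacyl-CoA reductase (KCR), a hydroxyacyl-CoA dehydratase (HCD) and an enoyl-CoA reductase (ECR) complete the round. The very-long-chain acyl groups feed the alkanes, alcohols and esters of cuticular wax, which together with triterpenoids forms the whitish bloom of a blueberry. Plants hold many KCS genes that differ in the tissues they serve and the chain lengths they favour.

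The libraries held 52919289 to 67604266 estimated counts each. Stage markers set the green libraries apart from all later ones, but their ranges overlapped between color break and mature libraries. They thus do not check the labels of these later stages against each other. The summed chalcone synthase level, an entry step to anthocyanin pigments, was 31.9 to 33.2 FPKM in green, 2490 to 2886 FPKM at color break and 2069 to 2623 FPKM in mature libraries. Seed storage genes took 4.62% to 5.50% of the counts in green libraries, 0.247% to 0.418% at color break and 0.248% to 0.299% at maturity. The share of seed tissue in a library was not measured, and its part in the results below was not tested.

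The loci had the same layout on the 3 scaffolds. On scaffold 19 the KCS gene was VaccDscaff19-snap-gene-130.30, a model of 6 exons on the minus strand at 13014583 to 13019686. On scaffold 20 the description was split between the KCS gene VaccDscaff20-augustus-gene-127.40 (12748972 to 12751339, minus strand, 3 exons) and a short model, VaccDscaff20-processed-gene-127.33 (12751584 to 12754015, minus strand, 2 exons), whose near end lay 244 bp upstream. On scaffold 28 the KCS gene VaccDscaff28-augustus-gene-219.27 (21928597 to 21931240, plus strand, 3 exons) likewise had a short model upstream on its strand, VaccDscaff28-processed-gene-219.2 (21926364 to 21926891, 1 exon), at a distance of 1705 bp. The short models lack the KEGG ortholog of KCS but carry its GO terms, fatty acid elongase activity and wax biosynthesis among them. From the first to the last base of this description on the sense strand, the loci spanned 5104 bp on scaffold 19, 5044 bp on scaffold 20 and 4877 bp on scaffold 28. The single model of scaffold 19 thus covered about the length that 2 models covered on each of the other scaffolds. Positions are as deposited, and the build they refer to is not stated in the labels or the file.

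The last model of the description, VaccDscaff28-processed-gene-219.21 (21926538 to 21926807, minus strand), lies inside the short model of scaffold 28 on the opposite strand and takes up 51.1% of its length. It received 1 count over the 9 libraries, where the model around it received 4603. Whether the counting used the strand is not stated, and without strand reads of the nested models cannot be told apart. This model did not pass the expression filter (at least 1 FPKM in at least 3 libraries) and was not tested, so 8 of the 9 models were. The 3 KCS genes and both short models passed the filter only through their color break and mature libraries.

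The neighbour described as Vadar_031021 stood upstream of the KCS gene, on the same strand, at all 3 loci. The gap to the nearest model of the KCS description was 6496 bp on scaffold 19, 6686 bp on scaffold 20 and 6955 bp on scaffold 28. The neighbours are VaccDscaff19-processed-gene-130.5 (13026183 to 13035869, 6 exons), VaccDscaff20-augustus-gene-127.41 (12760702 to 12763969, 6 exons) and VaccDscaff28-augustus-gene-219.26 (21916647 to 21919408, 5 exons). Their GO terms place the product in the nucleus and name cell differentiation and flower development. Within 150 kb on either side, 8 descriptions occurred at all 3 loci, and they stood in the same order along each scaffold once the scaffolds were oriented by the KCS gene. Of these 8 descriptions, 7 had exactly 3 rows in the table, 1 on each scaffold. The 8, a window chosen after the layout had been seen, include 6 that no member carries.

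**Figure D1:**
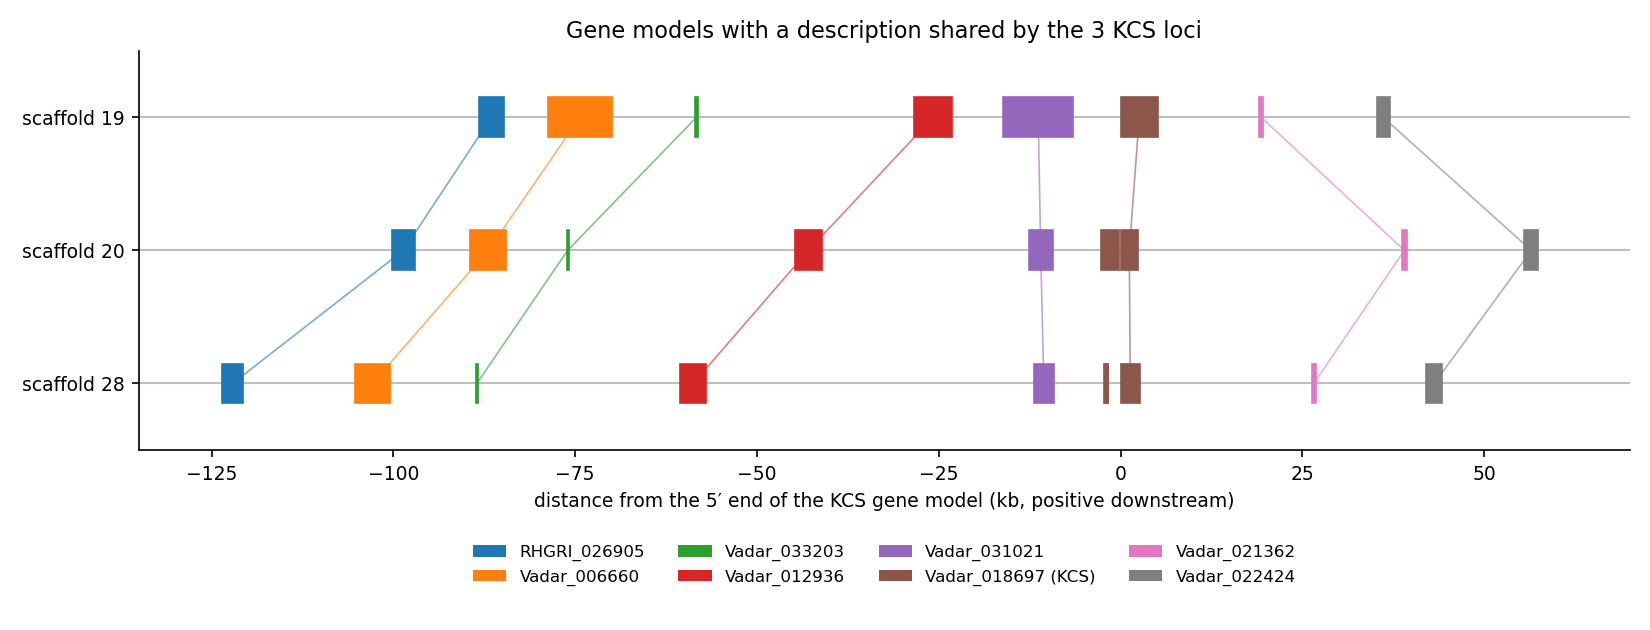
Map of the gene models whose description occurs at all 3 loci; the x axis is the distance in kb from the 5′ end of the KCS gene model, positive downstream, each row is 1 scaffold, boxes are models drawn to scale and lines join models of the same description. The 8 descriptions keep 1 order on the 3 scaffolds, and the KCS description fills 1 model on scaffold 19 and 2 adjacent sense models on scaffolds 20 and 28.

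The 3 KCS genes were barely detected in green fruit and clearly expressed in every later library. VaccDscaff19-snap-gene-130.30 had 0.0351, 0.0478 and 0.0230 FPKM (fragments per kilobase of model, scaled to the fragments of the library) in green replicates 1 to 3, 6.51, 6.28 and 4.80 FPKM at color break and 12.1, 11.7 and 7.16 FPKM at maturity. VaccDscaff20-augustus-gene-127.40 had 0.0216, 0.0904 and 0 FPKM in green libraries, 17.8, 22.7 and 16.9 FPKM at color break and 26.6, 24.8 and 20.7 FPKM at maturity. VaccDscaff28-augustus-gene-219.27 had 0.115, 0.208 and 0.0793 FPKM in green libraries, 21.2, 25.3 and 16.8 FPKM at color break and 30.7, 29.2 and 24.4 FPKM at maturity. In each of the 3 genes all later libraries lay above all green libraries, and mature replicate 3 was the lowest mature library. For the genes on scaffolds 20 and 28, that library lay below the highest color break library.

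The green levels rest on few counts. The gene on scaffold 19 had 5, 7 and 3 estimated counts in the green libraries, that on scaffold 20 had 3, 11 and 0, and that on scaffold 28 had 17, 28 and 11. At color break the same genes had 768 to 957, 2038 to 3159 and 2775 to 4023 counts. The edgeR estimates of the log2 change from these counts, given as a description, were 7.47 ± 0.34 (SE) on scaffold 19, 9.14 ± 0.45 on scaffold 20 and 7.51 ± 0.29 on scaffold 28 for color break over green. For mature over green they were 8.27 ± 0.34, 9.45 ± 0.45 and 7.90 ± 0.29 in the same order of scaffolds. Each SE was derived from the test statistic, and with so few green counts it is only a rough guide.

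Both short models had no count in any green library. VaccDscaff20-processed-gene-127.33 had 13.6, 13.7 and 16.6 FPKM at color break and 38.0, 35.3 and 29.9 FPKM at maturity. VaccDscaff28-processed-gene-219.2 had 13.2, 17.5 and 15.1 FPKM at color break and 33.9, 32.6 and 21.9 FPKM at maturity. In both, all mature libraries lay above all color break libraries. A count of 0 allows up to 3 counts, or 0.0536 to 0.0567 CPM (the count scaled to library size) in a green library, for counting error only. Stage means were set against the mean of that floor over the green libraries. The model on scaffold 20 then averaged at least 168-fold higher in color break and at least 395-fold higher in mature fruit. The model on scaffold 28 averaged at least 164-fold higher in color break and at least 315-fold higher in mature fruit. These are ratios of means, not limits for each library.

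**Figure D2:**
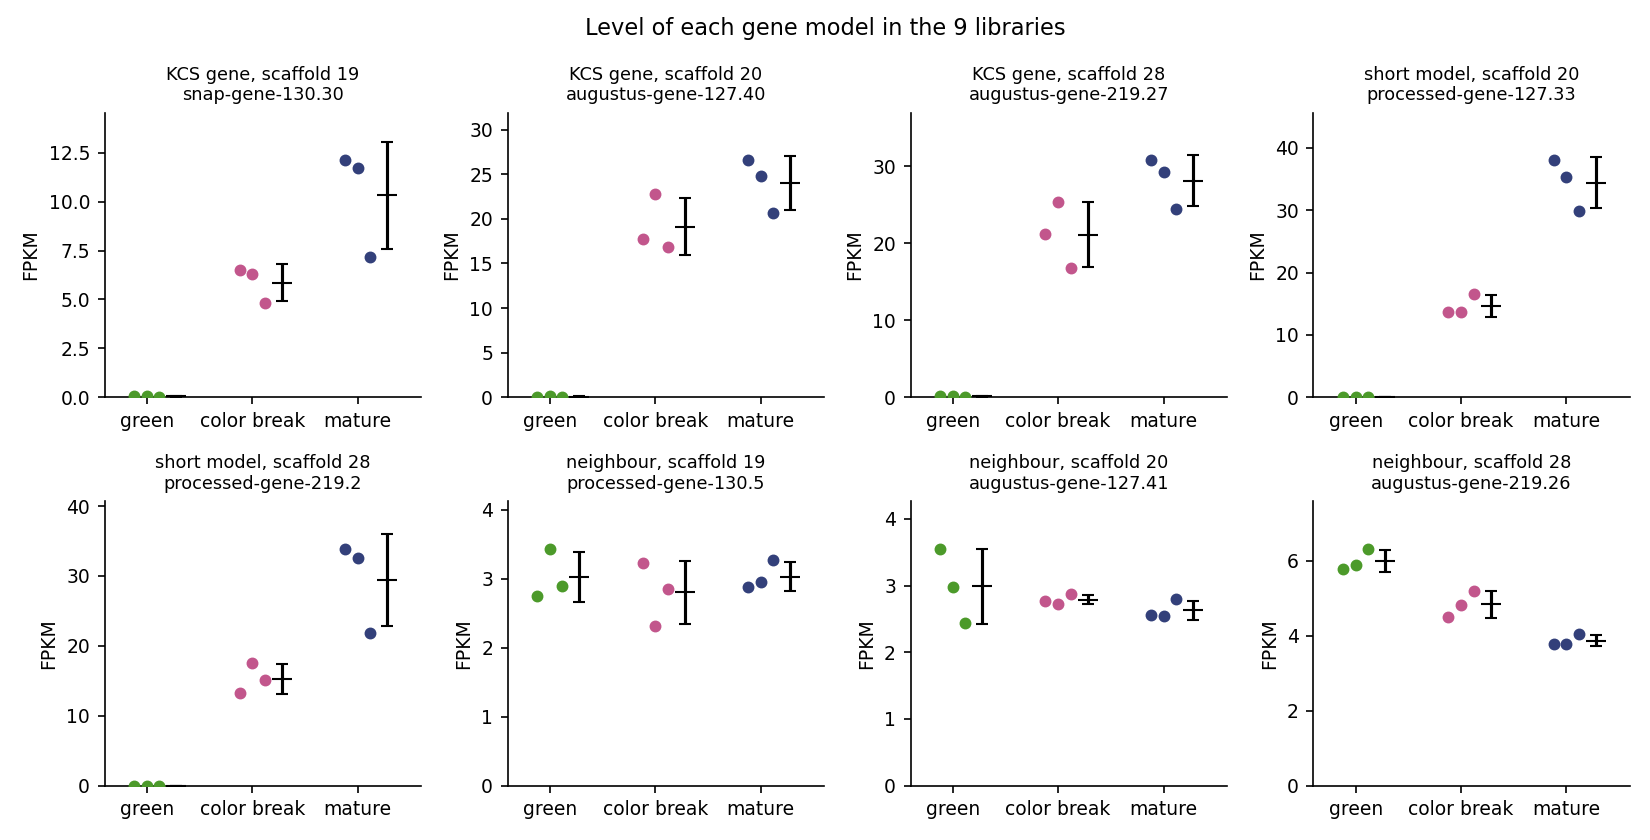
FPKM of the 8 tested gene models in each of the 9 libraries; points are libraries by stage (replicates 1 to 3 from left to right), and the bar beside them is the mean with its SD (n = 3). The KCS genes and short models lie near 0 in green fruit, and the Vadar_031021 neighbours stay between 2.32 and 6.32 FPKM in all libraries.

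The Vadar_031021 neighbours, about 7 kb or less away, were expressed at all stages. VaccDscaff19-processed-gene-130.5 averaged 3.02 ± 0.363 FPKM in green, 2.80 ± 0.457 FPKM at color break and 3.03 ± 0.206 FPKM in mature fruit (SD, n = 3), and its stages overlapped. VaccDscaff20-augustus-gene-127.41 averaged 2.99 ± 0.558, 2.79 ± 0.0716 and 2.63 ± 0.141 FPKM at the same stages, again with overlap. VaccDscaff28-augustus-gene-219.26 had 5.77, 5.88 and 6.32 FPKM in green libraries, 4.49, 4.83 and 5.20 FPKM at color break and 3.78, 3.79 and 4.03 FPKM at maturity. On the FPKM scale its 3 stages did not overlap and their means stepped down. In the edgeR fit its log2 change for color break over green was -0.03 ± 0.10, because TMM scaling between libraries adds 0.30 to that log2 change relative to library totals. For mature over green, where TMM adds 0.28, it was -0.38 ± 0.10.

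Of the 8 tested models, 5 were called higher at color break than in green fruit and the 3 neighbours were not called. Over all 48073 genes tested, 22.8% were called in that comparison, 8.89% higher and 13.9% lower (edgeR's quasi-likelihood test, Benjamini-Hochberg adjusted p under 0.05 and at least 2-fold). The same 5 were called higher in mature than in green fruit, where 24.6% of all genes were called, 9.49% higher and 15.1% lower. These counts follow from how the loci were chosen, and the members' differences from green fruit carry no further weight.

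Between color break and maturity 1 of the members, the short model of scaffold 20, passed the test. The short model VaccDscaff20-processed-gene-127.33 averaged 34.4 ± 4.09 FPKM in mature and 14.6 ± 1.71 FPKM in color break fruit (SD, n = 3), and it rose by 1.21 ± 0.13 on the log2 scale (edgeR adjusted p = 0.00365). It was the only one of the 8 to be called in this comparison, in which 1.37% of all genes were called and 0.763% were called higher. The short model of scaffold 28, VaccDscaff28-processed-gene-219.2, averaged 29.5 ± 6.59 FPKM in mature and 15.3 ± 2.13 FPKM in color break fruit. Its log2 change of 0.93 ± 0.19 had an edgeR adjusted p of 0.0324 but stayed under the 2-fold threshold.

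The KCS genes themselves did not pass the test of this step. VaccDscaff19-snap-gene-130.30 averaged 10.3 ± 2.75 FPKM in mature and 5.86 ± 0.928 FPKM in color break fruit, a log2 change of 0.80 ± 0.21 (edgeR adjusted p = 0.0563), with all 3 mature libraries above all color break libraries. VaccDscaff20-augustus-gene-127.40 averaged 24.03 ± 3.02 FPKM in mature and 19.1 ± 3.17 FPKM in color break fruit (log2 change 0.31 ± 0.26, edgeR adjusted p = 0.546). VaccDscaff28-augustus-gene-219.27 averaged 28.1 ± 3.31 FPKM in mature and 21.1 ± 4.25 FPKM in color break fruit (log2 change 0.39 ± 0.20, edgeR adjusted p = 0.288). Mature replicate 3 weighed on these values. Without it the gene on scaffold 19 had a log2 change of 1.01 (edgeR adjusted p = 0.0163) and the short model on scaffold 28 one of 1.11 (edgeR adjusted p = 0.0180), and both were then called. Over all alternatives their adjusted p ranged from 0.00601 to 0.154 and from 3.4e-04 to 0.0986.

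The neighbours gave small differences between mature and color break fruit. The log2 changes were 0.10 ± 0.15 on scaffold 19 (edgeR adjusted p = 0.773), -0.10 ± 0.15 on scaffold 20 (adjusted p = 0.758) and -0.34 ± 0.10 on scaffold 28 (adjusted p = 0.0837). The median over the 8 tested models was 0.35, against -0.01 over all genes tested.

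**Figure D3:**
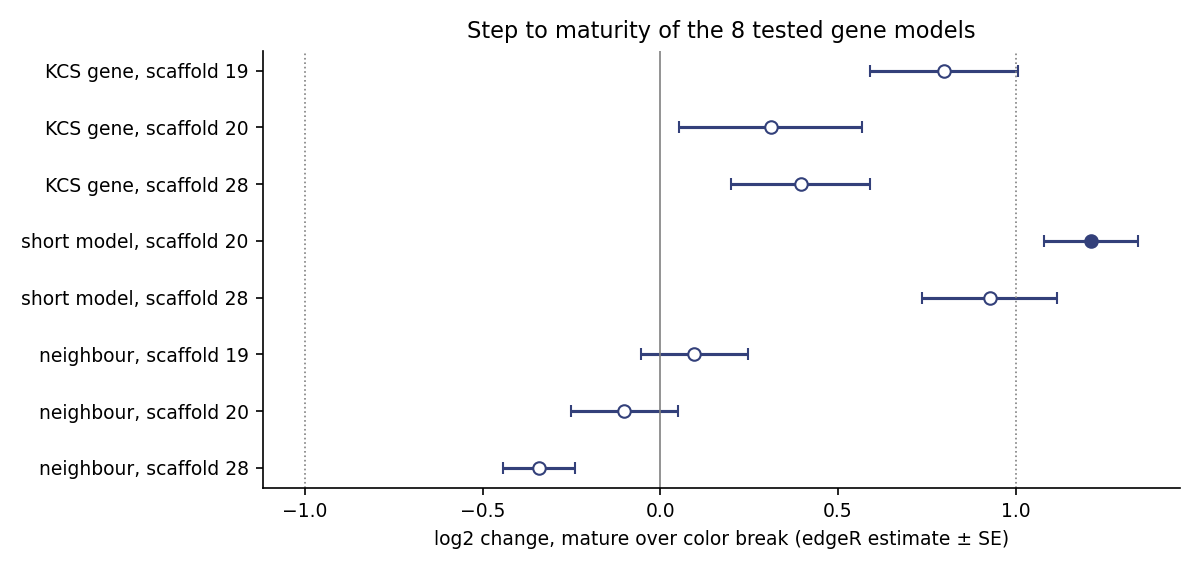
Log2 change of mature over color break fruit for the 8 tested models (edgeR estimates, 3 libraries per stage). Bars are the SE derived from the test statistic. The filled point was called, open points were not, and dotted lines mark a 2-fold change. The short model on scaffold 20 lies at 1.21 and that on scaffold 28 at 0.93, above the KCS genes of the same scaffolds at 0.31 and 0.39.

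The level of each short model was also set against that of the KCS gene beside it within a library, a comparison chosen after the values had been seen. On scaffold 20 the short model stood at 1.43, 1.42 and 1.45 times the FPKM of the KCS gene in mature replicates 1 to 3 and at 0.764, 0.603 and 0.986 times at color break. The stages did not overlap, and the log2 ratio differed by 0.89. On scaffold 28 the ratios were 1.10, 1.118 and 0.8976 in mature libraries and 0.626, 0.692 and 0.8999 at color break, with mature replicate 3 just below color break replicate 3. The log2 ratio there differed by 0.50. An exact two-sided permutation test gave p = 0.1 for scaffold 20, the smallest that 3 against 3 libraries allow, and p = 0.2 for scaffold 28 (adjusted p = 0.2 for both over the 2 loci). The short models are 568 and 528 nt long and the KCS models 1920 and 2197 nt, so the FPKM of the short models depends more on how their length was set.

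The KCS genes were compared between loci in the same way. The ratio of the KCS gene on scaffold 28 to that on scaffold 20 was 1.17 ± 0.0114 in mature and 1.10 ± 0.0968 in color break libraries (SD, n = 3). The gene on scaffold 19 stood at 0.424 ± 0.0681 of the level on scaffold 20 in mature and 0.309 ± 0.0495 in color break libraries. Against scaffold 28 it stood at 0.363 ± 0.0600 in mature and 0.280 ± 0.0301 in color break libraries. In log2 these 3 ratios differed between mature and color break fruit by 0.09, 0.45 and 0.36. The stages overlapped in each of the 3, and exact two-sided permutation tests gave p = 0.4, 0.2 and 0.2 (adjusted p = 0.4, 0.3 and 0.3 over the 3 pairs). With 3 libraries against 3 this exact test cannot fall below p = 0.1.

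**Figure D4:**
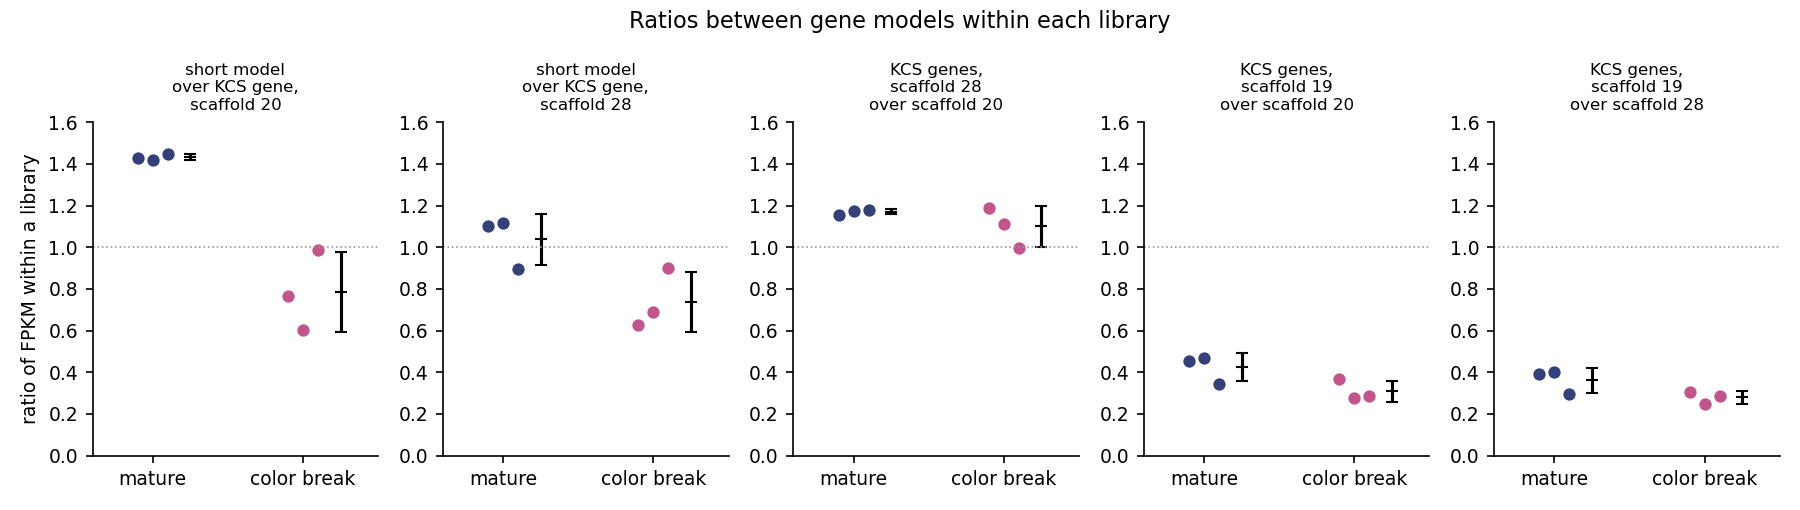
Ratio of FPKM between 2 gene models within each library, for mature and color break fruit; points are libraries, bars the mean with its SD (n = 3), and the dotted line marks equal levels. The short model of scaffold 20 lies above its KCS gene in all 3 mature libraries (1.42 to 1.45) and below it in all 3 color break libraries (0.603 to 0.986).

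The gene on scaffold 19 was the lowest of the 3 KCS genes in every color break and mature library. The gene on scaffold 28 was above that on scaffold 20 in all these libraries except color break replicate 3, where their ratio was 0.998. Of the 6 other descriptions shared by the loci, the copy on scaffold 19 had the lowest mean FPKM of the 3 for all 6 at each stage. Over the rest of these scaffolds, among descriptions with 1 row on each and a level above 0 on all 3, the row on scaffold 19 was the lowest in 86.3% of 417 in green fruit, 83.7% of 381 at color break and 80.3% of 386 at maturity. The median log2 ratio of scaffold 19 to scaffold 20 over these rows was -1.57 at maturity and -1.57 at color break, and that to scaffold 28 was -1.56 at maturity and -1.54 at color break. For the KCS genes the mean log2 ratio to scaffold 20 was -1.24 ± 0.24 at maturity and -1.69 ± 0.22 at color break (SD, n = 3). That to scaffold 28 was -1.47 ± 0.25 and -1.82 ± 0.16. These means average log2(FPKM + 0.1) ratios over libraries, whereas the medians use ratios of stage means. The KCS ratios lay above these medians at maturity and below them at color break. The gap was under the SD for scaffold 20 at color break and scaffold 28 at maturity, and it was not tested. The Vadar_031021 neighbours departed from this order, since the copy on scaffold 19 stood at 101%, 100% and 115% of the copy on scaffold 20 in green, color break and mature fruit. How reads shared by near-identical copies were divided is not stated, and its part in these levels was not tested.

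**Figure D5:**
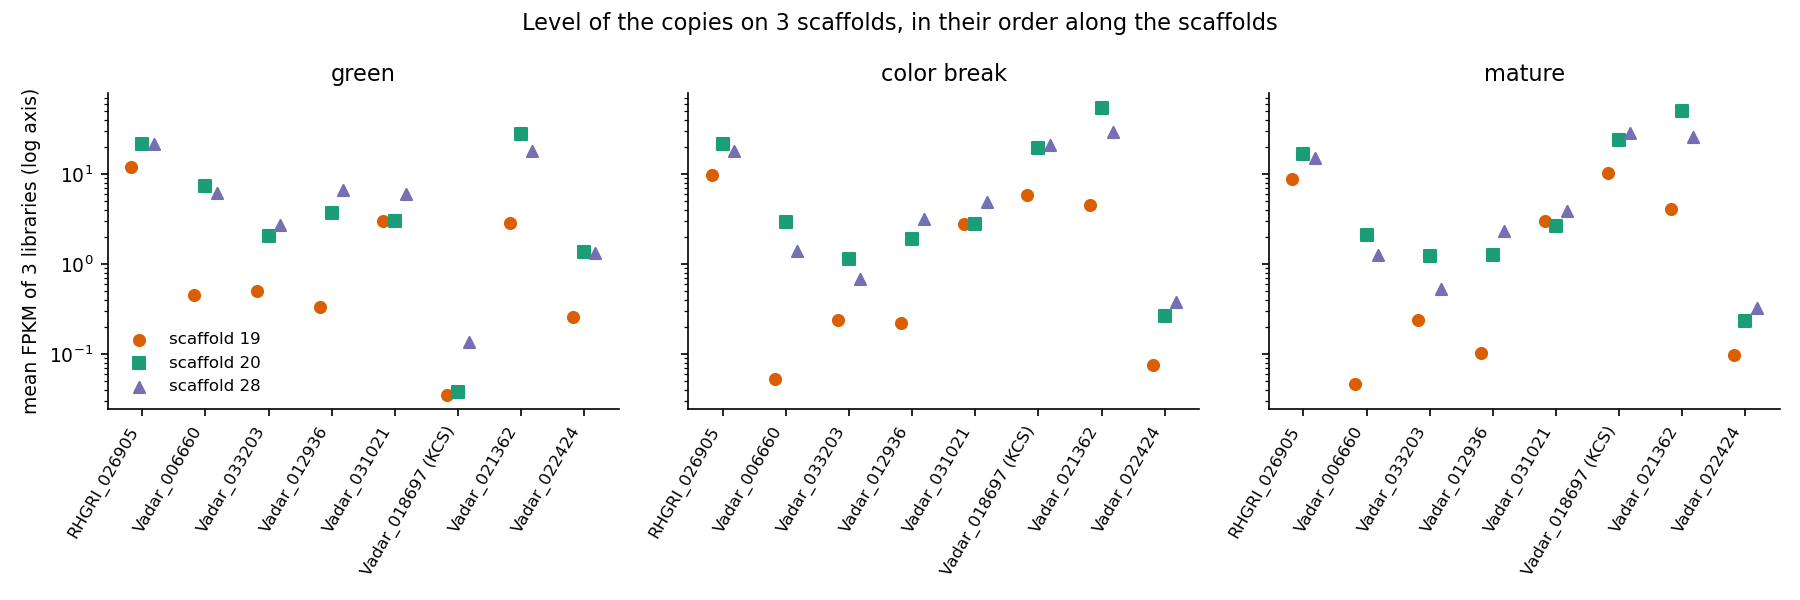
Mean FPKM of 3 libraries (log axis) for the copies of 8 descriptions on scaffolds 19, 20 and 28, in their order along the scaffolds, with 1 panel per stage. The copy on scaffold 19 is the lowest for all descriptions but Vadar_031021, and the KCS genes are the lowest set in green fruit and the highest or second highest at maturity.

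The models farther out were also examined. Of the 5 nearest models on either side of each locus, 30 in all, 12 passed the expression filter. At color break 1 of them was called higher and 5 lower than in green fruit, a share of 50% against 22.8% of all genes. Most of the 12 share their description with a copy at another locus, so this share does not rest on 12 independent genes. The one that rose was VaccDscaff20-processed-gene-127.1, which lies 36342 bp downstream of the members and whose GO terms name a transcription factor of ethylene signalling. It averaged 54.0 ± 1.46 FPKM at color break and 27.9 ± 2.40 FPKM in green fruit (log2 change 1.23 ± 0.08, edgeR adjusted p = 7.9e-07). Its counterparts on scaffolds 19 and 28, VaccDscaff19-processed-gene-130.0 and VaccDscaff28-processed-gene-219.11, had log2 changes of 0.95 ± 0.18 and 0.97 ± 0.09 (edgeR adjusted p = 0.00136 and 1.8e-05), under the 2-fold threshold. The next shared description downstream, Vadar_022424, carries GO terms of ethylene signalling as well, and its tested copy on scaffold 20, VaccDscaff20-augustus-gene-127.36, fell. It averaged 0.261 ± 0.0820 FPKM at color break and 1.35 ± 0.0570 FPKM in green fruit (log2 change -2.08 ± 0.30, edgeR adjusted p = 2.4e-04). The copies on scaffolds 19 and 28, which did not pass the filter, averaged 0.0761 and 0.376 FPKM at color break and 0.257 and 1.34 FPKM in green fruit. On the other side, VaccDscaff20-snap-gene-128.31 and VaccDscaff28-augustus-gene-218.12, both described as Vadar_006660, fell, with log2 changes of -1.04 and -1.86 (edgeR adjusted p = 1.7e-04 and 3.4e-04). Between mature and color break fruit 0 of the 12 were called by edgeR and 0 by DESeq2, where edgeR called 1.37% of all genes. An unadjusted edgeR p under 0.05 was found for 3 of the 12. Among them VaccDscaff20-snap-gene-128.30 had a log2 change of -0.63 (edgeR adjusted p = 0.0406), short of 2-fold. In that comparison the log2 changes of the Vadar_021362 models were -0.17, -0.13 and -0.20 on scaffolds 19, 20 and 28, and that of VaccDscaff20-augustus-gene-127.36 was -0.16.

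Among the 72 genes with the KCS ortholog, the members ranked low in green fruit and in the upper part later, as the way they were chosen implies. By mean FPKM the genes on scaffolds 19, 20 and 28 ranked 63, 60 and 53 in green fruit, 15, 7 and 5 at color break and 12, 8 and 6 at maturity. Together they made up 0.0505% ± 0.0297 of the summed FPKM of the family in green fruit, 11.6% ± 0.552 at color break and 11.6% ± 0.339 at maturity (SD, n = 3). Their summed level was 62.5 ± 9.04 FPKM in mature and 46.1 ± 7.95 FPKM in color break fruit, and that of the whole family was 537 ± 64.6 and 396 ± 50.2 FPKM. The share was thus level across the later stages while both sums were larger at maturity. With the short models counted in, the share was 21.0% ± 0.722 in mature and 17.9% ± 0.848 in color break fruit. FPKM is per kilobase of model, so this sum overstates the level if a short model and its KCS gene are 1 gene. Whether they are was not tested.

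More of the other KCS genes were called lower than higher at color break. There were 69 of them, of which 36 were tested. At color break 1 was called higher and 19 lower than in green fruit, where 8.89% of all genes were called higher and 13.9% lower. The median log2 change was -1.60 against -0.01 over all genes. In mature against green fruit 4 were called higher and 13 lower (median -0.60), where 9.49% of all genes were called higher and 15.1% lower. In mature against color break fruit 12 of the 36 were called higher and 2 lower (median 0.63), where 0.763% of all genes were called higher and 0.612% lower. The 1 gene that rose at color break was the most highly expressed, VaccDscaff24-augustus-gene-329.18, which averaged 48.2 ± 2.11 FPKM in green, 121 ± 19.6 FPKM at color break and 141 ± 19.3 FPKM in mature fruit. Its log2 change was 1.603 ± 0.13 for color break over green (edgeR adjusted p = 8.8e-06) and 1.81 ± 0.13 for mature over green (edgeR adjusted p = 3.8e-06). For mature over color break it was 0.20 ± 0.13 (edgeR adjusted p = 0.413). The next 2 by mean level, VaccDscaff19-augustus-gene-155.20 and VaccDscaff15-augustus-gene-60.24, had log2 changes of 0.86 and 0.83 in that comparison (edgeR adjusted p = 0.00599 and 0.00435), short of 2-fold. The scaffold 19 member, at 0.80, had a similar estimate with a wider error, and the members on scaffolds 20 and 28 had smaller ones. These differences between genes were not tested.

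No partner gene of the elongase reached the threshold of a call, which needs a 2-fold change. Of 11 KCR, 5 HCD and 5 ECR genes tested, edgeR and DESeq2 called 0 in each of the 3 comparisons. Over all genes, 22.8% were called for color break over green, 24.6% for mature over green and 1.37% for mature over color break. At the last of these shares, a count of 0 in such short lists says little about their genes. Unadjusted edgeR p-values were under 0.05 for 5 KCR, 3 HCD and 3 ECR genes for color break over green. For mature over color break they were under 0.05 for 3 KCR, 1 HCD and 0 ECR genes. The highest KCR, HCD and ECR genes, named below, had log2 changes of 0.24, -0.41 and 0.45 for color break over green. Their edgeR adjusted p-values were 0.0180, 0.00402 and 0.00785, so only the 2-fold threshold kept them from a call. The summed KCR, HCD and ECR levels averaged 71.1, 52.3 and 27.8 FPKM in green and 57.3, 31.7 and 29.8 FPKM at color break. The highest KCR gene, VaccDscaff13-augustus-gene-59.43, averaged 30.2 ± 0.873 FPKM in mature and 22.8 ± 1.90 FPKM in color break fruit (log2 change 0.39, edgeR adjusted p = 0.0152). The highest HCD gene, VaccDscaff42-snap-gene-42.34, averaged 11.5 ± 0.489 FPKM in mature and 9.55 ± 0.957 FPKM in color break fruit. The highest ECR gene, VaccDscaff29-augustus-gene-151.24, averaged 15.9 ± 2.82 and 13.2 ± 0.275 FPKM in the same order.

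Of the enzymes on either side of elongation few were called, in short lists to be read against the shares of all genes given above. Among 15 tested long-chain acyl-CoA synthetase (LACS) genes, which activate fatty acids, 1 was called higher at color break than in green fruit, 2 in mature than in green fruit and 0 in mature against color break fruit (0 by DESeq2, 4 with an unadjusted edgeR p under 0.05). The highest LACS gene was VaccDscaff1429-snap-gene-0.4, with 65.6 ± 1.59 FPKM in mature and 63.8 ± 3.12 FPKM in color break fruit. The tested gene for CER1, which forms wax alkanes, VaccDscaff37-augustus-gene-293.17, averaged 56.2 ± 2.93 FPKM in green, 102 ± 5.46 FPKM at color break and 107 ± 9.42 FPKM in mature fruit. It rose at color break against green fruit (log2 change 1.14, edgeR adjusted p = 1.2e-06) and in mature against green fruit (log2 change 1.18, edgeR adjusted p = 8.8e-07). Mature against color break fruit gave a log2 change of 0.04 (edgeR adjusted p = 0.819). Of 2 tested genes for fatty acyl-CoA reductase (FAR), which makes wax alcohols, 1 was called lower at color break than in green fruit. The more highly expressed FAR gene, VaccDscaff46-augustus-gene-104.22, averaged 4.21 ± 1.07 FPKM in mature and 3.54 ± 1.47 FPKM in color break fruit.

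Many genes had a course across the stages that was correlated with that of the KCS genes. Likeness was measured as Pearson's r of log2(FPKM + 1) over the 9 libraries with the mean of the 3 KCS genes, for 22485 genes with at least 5 FPKM in their highest stage. Since the libraries fall into stages, r mostly reflects the step between green and later fruit, and 3709 of these genes (16.5%) had r above 0.9. The size of the step does not enter r, and the 3709 genes were not sorted by pathway. Only 1539 of the 22485 genes had a named protein, and the 5 most alike of these ranked 17 to 37 among all. The 5 most alike among those with a named protein were an ULTRAPETALA 1-like gene (VaccDscaff5-augustus-gene-324.14, r = 0.997), 2 genes for a HAL2-like phosphatase (VaccDscaff19-snap-gene-240.23 with r = 0.997 and VaccDscaff11-snap-gene-173.32 with r = 0.996), a peroxisomal adenine nucleotide carrier gene (VaccDscaff34-snap-gene-165.32, r = 0.997) and a 4-coumarate--CoA ligase 1 gene (VaccDscaff50-processed-gene-21.6, r = 0.997). The ligase, an enzyme of the phenylpropanoid pathway, averaged 0.929 ± 0.0867 FPKM in green, 29.5 ± 4.84 at color break and 32.3 ± 5.04 FPKM in mature fruit. For color break over green the log2 change was 5.25 for the ligase, 2.73 for the ULTRAPETALA 1-like gene and 1.18 for the carrier gene. It was 1.82 and 2.20 for the HAL2-like genes on scaffolds 19 and 11, and 7.47 to 9.14 for the KCS genes. Within the 6 color break and mature libraries alone, r was 0.995 for the HAL2-like gene on scaffold 19, 0.955 for that on scaffold 11 and 0.829 to 0.886 for the other 3. The short models had r of 0.989 on scaffold 20 and 0.996 on scaffold 28 over the 9 libraries, and the Vadar_031021 neighbours had r of -0.16, -0.44 and -0.89 on scaffolds 19, 20 and 28. In the 6 color break and mature libraries alone, r was 0.785 and 0.921 for the short models on scaffolds 20 and 28. For the neighbours it was -0.05, -0.96 and -0.89 on scaffolds 19, 20 and 28.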

How the data were processed

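The authors deposited 1 table with FPKM, per the file headers, and estimated counts for 93716 gene models. The submitters' processing notes name fastp, HISAT2, StringTie and DESeq2, with no version, setting or build stated in the labels or the file. The deposited estimated counts are whole numbers, and 97.5% to 97.9% per library lie within 1 count of FPKM times model length times 1 constant. The labels' library text names a Populus hybrid, whereas organism, cultivar and gene names are blueberry. Columns were matched to libraries by name.

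Genes with at least 1 FPKM in at least 3 libraries (48073) were tested with edgeR 4.0.16 (robust quasi-likelihood, TMM, stage as the only term, all 9 libraries), in R 4.3.3. Calls need an adjusted p under 0.05 over all tested genes and a 2-fold change (log2 of 1) either way. The SE of an edgeR log2 change was taken as its absolute value divided by the square root of the test's F statistic. The TMM factors lay between 1.13 and 1.15 for green, 0.927 and 0.932 for color break and 0.937 and 0.945 for mature libraries. Log2 changes carry them and FPKM means do not. Ratios within a library used log2(FPKM + 0.1) and exact permutation tests (scipy 1.17.1). Alternatives were median-of-ratios scaling, no filter, a mean of at least 5 FPKM, DESeq2 1.42.0, limma 3.58.1 on log2(FPKM + 1) and log2(FPKM + 0.1), only the 2 stages compared, a replicate block, each library left out and models of a locus summed. The fit was tested on simulated data.

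The members and gene lists were chosen with earlier results of these data known. KCS, KCR, HCD, ECR, LACS, CER1 and FAR genes were taken by KEGG ortholog. For wax ester synthase the ortholog matched 0 genes. Genes named are the 9 members, flanking genes that passed the filter and the 3 other KCS genes with the highest mean FPKM. The highest gene of each other list and the 5 genes with a named protein most like the KCS members are also named. Depth limits green fruit most, where the KCS members had 0 to 28 counts.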

Additional observations from a re-analysis of the deposited data

How the results depend on the processing

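For mature against color break fruit, the log2 change of the short model on scaffold 20 was called under all 17 alternatives run (1.14 to 1.31), and the KCS genes on scaffolds 20 and 28 were called under none of 18. Leaving out 1 library at a time, the log2 change ranged from 0.67 to 1.01 for the KCS gene on scaffold 19, and from 0.82 to 1.11 for the short model on scaffold 28. Both were called only without mature replicate 3 (1.01 and 1.11). For the neighbour on scaffold 19 it ranged from -0.02 to 0.21 and turned negative (-0.023) without color break replicate 2. With the models of a locus summed, the KCS description gave 0.53 on scaffold 20 and 0.49 on scaffold 28. The genes called between mature and color break fruit, 661 in all, numbered 196 at a mean of at least 5 FPKM, 1002 with DESeq2, 246 with limma on log2(FPKM + 1), 346 with only the 2 stages and 402 to 1045 leaving out 1 library, the lowest without mature replicate 3 and the highest without color break replicate 3. At a mean of at least 5 FPKM, where fewer genes are tested, 3488 were called for color break and 3776 for mature against green fruit. The KCS genes' share of the family was 12.3% at color break and 12.3% in mature fruit from estimated counts, and 17.9% and 21.0% with the short models, which adds models to it. Other causes were not tested.

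Same-numbered libraries of different stages correlated at -0.01 to 0.22 in their deviations from stage means, and differently numbered ones at -0.17 to 0.10. Above 0.1 lay 2 of 9 same-numbered pairs and 1 of 18 others. By that limit the numbers were not taken to pair the libraries, and the exact permutation tests ignore them. As a hint the other way, 14 of 18 library comparisons were best with their own number, each among 3 libraries of the other stage. With a replicate block 489 genes were called for mature against color break, 11144 for color break against green and 11916 for mature against green. No member's call between mature and color break fruit changed, and the members' blocked results against green fruit are not reported. The low green counts limit how well the size of the step from green fruit is known.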
